A study of Mus musculus with 6 samples.

Results

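The genes studied here are 45 genes of the TGF-beta and BMP pathways, chosen by symbol from the 49671 genes listed for basal keratinocytes of mouse ear epidermis. They comprise 9 ligands, 5 genes of ligand latency and processing, 5 antagonists, 10 receptors, 12 SMADs and SMAD regulators, and the 4 ID genes, which are targets of BMP signalling. Of the 45, 39 had enough reads to be tested, and *Bmp6*, *Inhba*, *Inhbb*, *Nog*, *Grem1* and *Smad6* did not. The study compared RNA of sorted epidermal cells from castrated male, female and intact male mice of the outbred CD1 stock, with 2 libraries in each of these 3 groups. The labels name no transgene or engineered allele in any group, and the age of the mice and the time since castration are not stated in the labels. Viable ear cells that stained for integrin alpha 6 but not for CD34 were sorted, a gate that takes basal cells and leaves out the bulge of the hair follicle. Each library held polyA RNA of 100000 sorted cells pooled from 2 mice of 1 litter. The p-values therefore rest on how pools of 1 group differ, and litter cannot be told apart from sex or treatment.

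TGF-beta is secreted in a latent complex with LTBP proteins, and once released it binds the receptors TGFBR2 and TGFBR1, which phosphorylate SMAD2 and SMAD3. Activins use ACVR2A, ACVR2B and ACVR1B to reach the same SMADs, whereas BMPs act through BMPR2, BMPR1A, BMPR1B and ACVR1 on SMAD1 and SMAD5. All of these SMADs form complexes with SMAD4 that enter the nucleus, and SMAD6, SMAD7 and the SMURF ubiquitin ligases hold the signal down. In the epidermis TGF-beta is known as a brake on keratinocyte division, and BMP signalling is known for its part in keratinocyte differentiation and in the resting state of hair follicle stem cells.

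The sequence before and at the start of transcription is shown for *Tgfb2*, the 1 member that passed the test, and for 3 of the ID genes, through which BMP signalling is usually read. Each promoter window runs from 250 bases before to 50 bases after the start in RefSeq on the build GRCm38.p6, is written 5′ to 3′ on the strand of the gene, and was available for 32 of the 45 genes. Capitals mark 3 motifs searched on both strands. They are the E-box CACGTG, the SMAD motif CAGAC with its reverse complement GTCTG, and GGCGCC, a GC-rich motif bound by SMAD1 and SMAD5. The windows lie at chr1:186705940-186706239 on the minus strand for *Tgfb2*, at chr12:25096043-25096342 on the minus strand for *Id2*, at chr4:136143572-136143871 on the plus strand for *Id3* and at chr13:48260866-48261165 on the plus strand for *Id4*.
Tgfb2: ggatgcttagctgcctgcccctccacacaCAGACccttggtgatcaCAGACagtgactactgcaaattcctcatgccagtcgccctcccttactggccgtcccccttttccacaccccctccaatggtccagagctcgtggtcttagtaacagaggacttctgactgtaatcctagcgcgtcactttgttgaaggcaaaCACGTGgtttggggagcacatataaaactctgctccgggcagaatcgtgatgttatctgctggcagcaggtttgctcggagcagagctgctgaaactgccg
Id2: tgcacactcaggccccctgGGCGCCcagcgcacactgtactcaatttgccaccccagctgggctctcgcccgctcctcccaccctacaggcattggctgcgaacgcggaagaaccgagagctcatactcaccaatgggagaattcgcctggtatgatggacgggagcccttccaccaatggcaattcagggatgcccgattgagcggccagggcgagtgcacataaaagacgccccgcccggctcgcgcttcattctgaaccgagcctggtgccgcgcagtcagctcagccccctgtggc
Id3: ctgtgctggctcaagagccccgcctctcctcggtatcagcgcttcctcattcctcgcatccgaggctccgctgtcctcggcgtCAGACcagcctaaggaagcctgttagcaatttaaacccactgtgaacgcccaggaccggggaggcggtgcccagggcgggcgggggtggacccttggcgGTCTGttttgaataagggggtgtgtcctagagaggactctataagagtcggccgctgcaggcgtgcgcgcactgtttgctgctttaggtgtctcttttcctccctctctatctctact
Id4: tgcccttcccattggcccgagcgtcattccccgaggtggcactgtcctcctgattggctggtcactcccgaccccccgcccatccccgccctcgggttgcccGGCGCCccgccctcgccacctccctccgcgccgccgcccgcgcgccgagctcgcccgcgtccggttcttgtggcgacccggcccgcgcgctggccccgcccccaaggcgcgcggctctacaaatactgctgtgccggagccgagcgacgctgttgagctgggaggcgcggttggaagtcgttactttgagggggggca
The *Tgfb2* window held 2 copies of the SMAD motif and 1 E-box, and no GGCGCC. The *Id3* window held 2 copies of the SMAD motif, and the windows of *Id2* and *Id4* held 1 GGCGCC each. Of all 32851 promoter windows of this length, 49.6% held the SMAD motif, 7.15% the E-box and 11.9% GGCGCC. These matches describe letters only, and binding of a SMAD to them was not measured.

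The libraries held 8412487 to 9648154 reads, as inferred from the deposited scaled values. Values are CPM, which scales the reads of each gene to the adjusted size of its library, and 3 reads, the upper limit behind a gene with 0 reads, were worth 0.307 to 0.385 CPM in a library. This limit covers counting error only. The basal markers *Krt5*, *Krt14*, *Krt15*, *Itga6*, *Itgb4* and *Trp63* summed to 39112 and 39077 CPM in castrated males, 36487 and 39808 CPM in females, and 36542 and 42302 CPM in intact males, whereas *Cd34*, the gene of the bulge marker gated out, lay between 1.49 and 3.05 CPM. No basal marker was called, but both female libraries lay below all castrated and intact male libraries for *Krt15* and *Itgb4*. In females against intact males their log2 fold changes were -0.71 (adjusted p = 0.136 in limma) and -0.45 (adjusted p = 0.0705 in limma). That of *Itga6* was -0.11, and those of *Krt5*, *Krt14* and *Trp63* were positive. The 7 suprabasal markers summed to 1164 and 1260.3 CPM in castrated males, 1195 and 1553 CPM in females, and 917 and 705 CPM in intact males, and 3 of them (*Krt1*, *Krtdap* and *Flg*) were higher in females than in intact males past the test. The 7 fibroblast markers summed to 9.90 and 11.4 CPM in castrated males, 15.2 and 7.95 CPM in females, and 27.1 and 12.3 CPM in intact males, with *Col3a1*, *Lum* and *Pdgfra* at or below 0.256 CPM in all 6 libraries. The 6 endothelial markers summed to 5.35 and 6.03 CPM in castrated males, 5.93 and 6.92 CPM in females, and 11.7 and 6.34 CPM in intact males. The first intact male library had the highest fibroblast and endothelial sums. The 5 Langerhans cell markers summed to 248 and 289 CPM in castrated males, 629.8 and 1389 CPM in females, and 232 and 268 CPM in intact males, and 1 of them, *Cd74*, was called higher in females than in intact males. *Cd74* alone had 603 and 1354 CPM in females, and *Cd207*, *Ptprc*, *Itgax* and *Csf1r* were not called. The 6 bulge markers summed to 673 and 679 CPM in castrated males, 1381 and 1944 CPM in females, and 708 and 513 CPM in intact males, and 1 of them, *Postn*, was called higher in females. *Postn* alone had 1283 and 1873 CPM in females. The other 5 were not called, and *Lgr5* had a log2 fold change of -0.71 in females against intact males (adjusted p = 0.104 in limma). Over the 6 libraries the T cell markers summed to 14.9 to 152 CPM, the melanocyte markers to 26.5 to 72.6 CPM, the cartilage markers to 0.227 to 1.06 CPM and the neutrophil and macrophage markers to 3.78 to 5.90 CPM, with *Acan* and *Matn1* of cartilage at 0 reads in every library. Of the T cell markers, *Thy1* alone had 68.2 and 144 CPM in castrated males, 8.90 and 60.4 CPM in females, and 80.5 and 97.0 CPM in intact males. Its log2 fold change in females against intact males was -1.89 (adjusted p = 0.142 in limma). The other T cell markers had at most 4.47 CPM in any library, and none was called.

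Per kilobase of exonic sequence, *Id1*, *Id3* and *Id2* were the most abundant members. *Id1* averaged 219 CPM per kb in castrated males, 258 CPM per kb in females, and 183 CPM per kb in intact males and *Id3* averaged 179 CPM per kb in castrated males, 163 CPM per kb in females, and 174 CPM per kb in intact males. Over all 6 libraries 98.2% of the tested genes had a lower level than *Id1*. *Id2*, the receptors *Tgfbr3* and *Acvr1b* and the ligand *Bmp4* followed, with levels above those of 90.4%, 85.9%, 85.4% and 82.2% of the tested genes in that order. Of the tested ligands *Tgfb1* was the lowest, at a mean of 0.440 CPM per kb in castrated males, 0.510 CPM per kb in females, and 0.333 CPM per kb in intact males, and 5.45% of the tested genes were lower. Among the tested members *Ltbp2*, *Ltbp1* and *Bambi* were lower still. The plot of levels per library shows the order within each role.

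**Figure D1:**
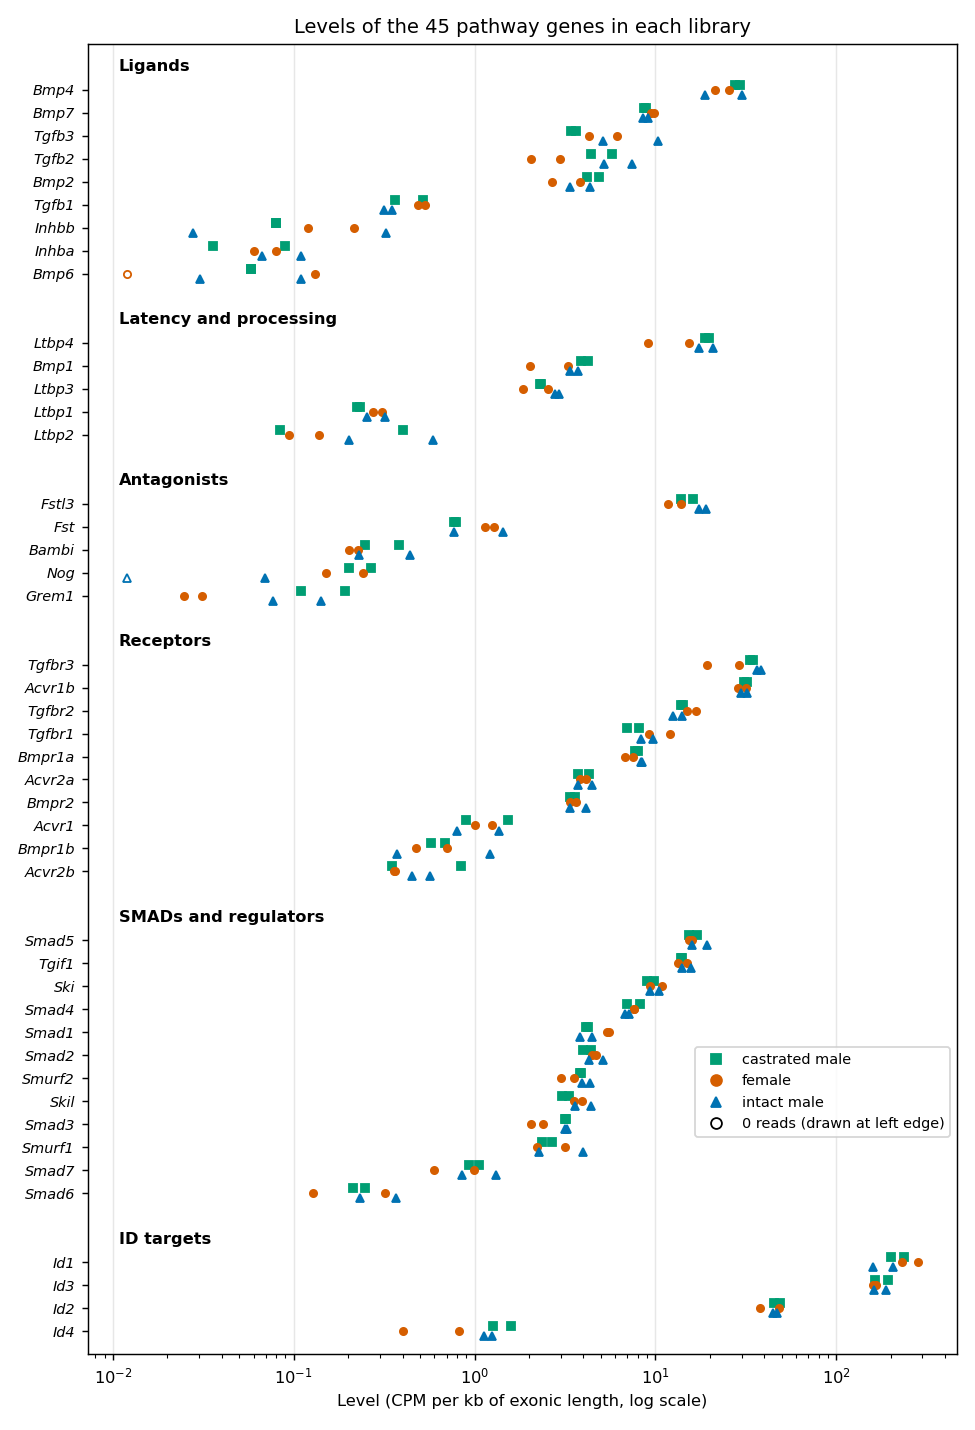
Level of each of the 45 genes in each library in CPM per kb of exonic length on a log axis, grouped by role and ordered by mean level, with 1 symbol per library. *Id1* and *Id3* lie furthest to the right, at 159.6 CPM per kb or more in every library, and open symbols at the left edge stand for 0 reads.

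For females against intact males, 1 of the 39 tested members passed the test in limma (adjusted p below 0.05), the TGF-beta ligand gene *Tgfb2*. It fell to 14.6 ± 3.79 CPM in females, against 36.6 ± 9.25 CPM in intact males (SD, n = 2 libraries each). This is 2.56% of the tested members, where 6.1% of all 15413 tested genes passed (3.7% higher and 2.39% lower). At an unadjusted p below 0.05 there were 2 members higher and 6 lower, 20.5% of those tested, where 24.9% of all tested genes reached it (13% higher and 11.9% lower). The 2 libraries of females lay above both of intact males for 6 members and below both for 14, which makes 51.3% of the members, against 53.7% of all tested genes (26.6% above and 27.2% below). The median log2 fold change was -0.10 over the members and -0.01 over all tested genes. By direction, 15.4% of the members lay above and 35.9% below.

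For castrated against intact males no member passed in limma, and 0.0389% of all tested genes did (0.013% higher and 0.026% lower). At an unadjusted p below 0.05 there was 1 member, *Tgfb3*, with 5.93% of all tested genes at that level (3.1% higher and 2.83% lower). The castrated male libraries lay above both intact male libraries for 3 members and below both for 9, or 30.8% of the members, against 35.5% of all tested genes (17.3% above and 18.2% below). The median log2 fold change was -0.07 over the members and 0.00 over all tested genes.

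For castrated males against females no member passed in limma either, where 1.73% of all tested genes did (0.571% higher and 1.15% lower). At an unadjusted p below 0.05 there were 6 members higher and 2 lower in castrated males, 20.5% of those tested, against 21.6% of all tested genes (10.4% higher and 11.3% lower). Groups did not overlap for 12 members higher and 9 lower in castrated males, or 53.8%, against 57.7% of all tested genes (29.4% higher and 28.3% lower). The median log2 fold change was 0.06 over the members and 0.01 over all tested genes. Each pair of these comparisons shares a group of libraries, so they do not test the members independently.

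The members' fold changes in castrated against intact males had a Spearman rho of -0.469 with exonic length over the 39 genes, which share the same libraries, and over 15362 tested genes with a length rho was -0.0191. In females against intact males rho was -0.0800 over the members and -0.132 over all these genes. In castrated males against females it was -0.101 and 0.127. Deviations of single libraries from the gene means had a rho with length of -0.0632 and -0.147 in females, and of 0.0388 to 0.102 in the male libraries.

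**Figure D2:**
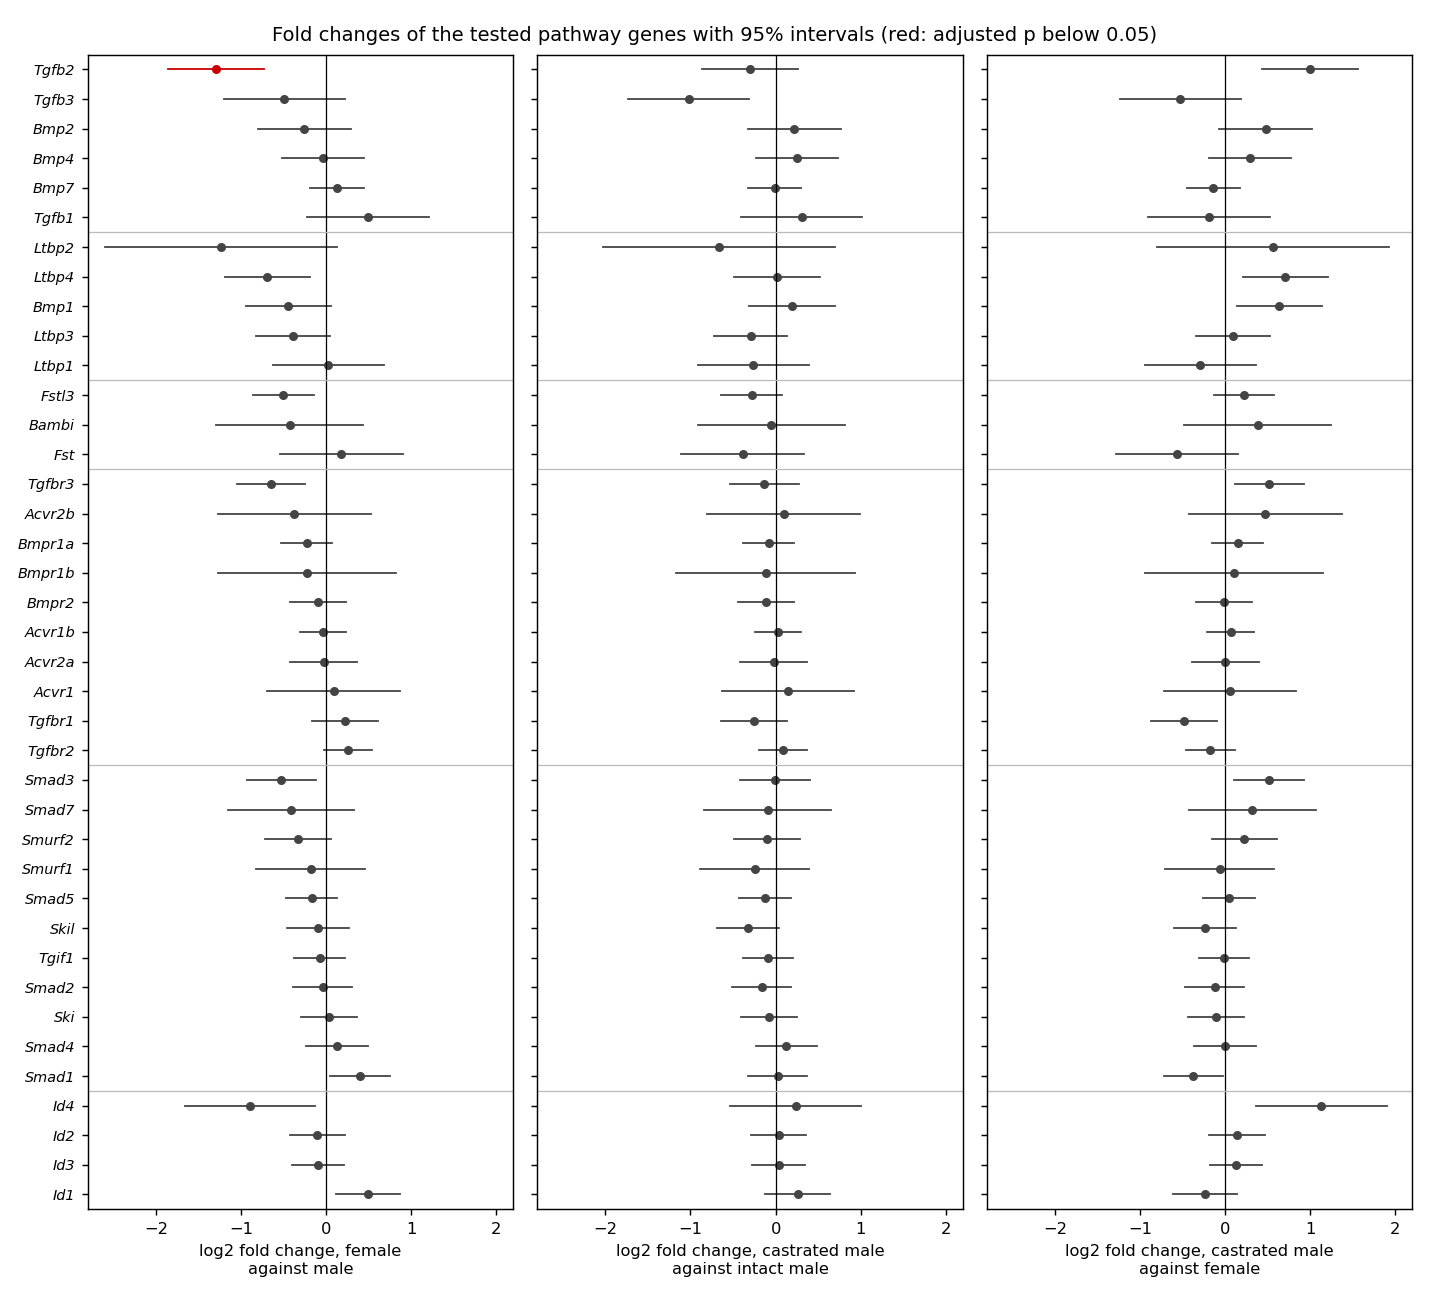
Log2 fold change of the 39 tested genes with its 95% interval, for females against intact males, castrated against intact males, and castrated males against females, ordered by role and separated by grey lines. The 1 red gene is *Tgfb2* in females against intact males, at -1.30, and every other point is grey, which marks an adjusted p of 0.05 or more.

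Of the ligands, *Tgfb2* encodes a TGF-beta isoform and lies at chr1:186622792-186705989 on the minus strand of GRCm38. It had 224 and 292 reads in castrated males, 169 and 93 reads in females, and 282 and 367 reads in intact males. These amount to 25.5 and 33.2 CPM in castrated males, 17.3 and 11.9 CPM in females, and 30.0 and 43.1 CPM in intact males, or means of 29.4 ± 5.49 CPM in castrated males, 14.6 ± 3.79 CPM in females, and 36.6 ± 9.25 CPM in intact males (SD, n = 2 libraries each). Both female libraries lay below the other 4, and the castrated and intact male ranges overlapped. In females against intact males the log2 fold change was -1.30 ± 0.25 (SE, 95% interval -1.86 to -0.73, adjusted p = 0.0246). In castrated males against females it was 0.99 ± 0.25 (SE, 95% interval 0.43 to 1.56, adjusted p = 0.0821), which did not pass, and in castrated against intact males it was -0.30 ± 0.25 (SE, 95% interval -0.86 to 0.26, adjusted p = 0.999), an interval that spans 0. The female call was lost (adjusted p = 0.0520, 0.0530, 0.198 and 0.0702) without castrated male library 1, castrated male library 2, female library 2 or intact male library 2, while the log2 fold change stayed between -1.55 and -1.04 whichever of the 6 libraries was left out. It was also lost without the filter on low values (adjusted p = 0.0863) and in a fit of only the female and intact male libraries (adjusted p = 0.0534), and the castrated male difference from females passed in a fit of only those 2 groups (adjusted p = 0.0463) and without female library 1 or either intact male library (0.0420 to 0.0446). The sum of the suprabasal markers was also higher in both female libraries than in both intact male libraries, with 3 of its 7 markers called and none at 0 in any library. It was higher in both castrated male libraries than in both intact male libraries too. There no marker was called, and 5 had an unadjusted p below 0.05 in limma, a level that 5.93% of all tested genes reached. Of the basal markers, *Krt15* and *Itgb4* had both female libraries below the other 4, as *Tgfb2* did, and *Krt5*, *Krt14*, *Itga6* and *Trp63* did not. The part of the suprabasal or basal markers in the *Tgfb2* difference was not tested. In bulk RNA, fewer cells that express a gene and less RNA per cell cannot be told apart.

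*Tgfb3* encodes another TGF-beta isoform. Its values were 12.4 and 11.5 CPM in castrated males, 20.8 and 14.6 CPM in females, and 35.0 and 17.4 CPM in intact males, which gave means of 11.9 ± 0.635 CPM in castrated males, 17.7 ± 4.34 CPM in females, and 26.2 ± 12.5 CPM in intact males (SD, n = 2 libraries each). Both castrated male libraries lay below the other 4, and the first intact male library stood alone at the top. The log2 fold change in castrated against intact males was -1.02 ± 0.31 (SE, 95% interval -1.73 to -0.31, adjusted p = 0.681), which did not pass. Without intact male library 1 it was -0.52, and without intact male library 2 it was -1.51 and passed (adjusted p = 0.0459 in limma). *Dcn*, a proteoglycan of fibroblasts, had 5.23 and 5.01 CPM in castrated males, 10.5 and 4.49 CPM in females, and 21.0 and 7.52 CPM in intact males. The first intact male library was the highest here too, as it was for *Kdr*, an endothelial receptor, at 3.20 CPM against at most 0.470 CPM elsewhere. *Pecam1* (5.75 CPM), *Emcn* (1.38 CPM), *Col1a1* (0.746 CPM) and *Col3a1* (0.213 CPM) of these lists were highest in that library as well. *Col1a2* was highest in castrated male library 2 (5.81 CPM) and *Vwf* in intact male library 2 (1.17 CPM). *Lum*, *Pdgfra*, *Pdgfrb*, *Cdh5* and *Tek*, all with few reads, also had their highest value outside intact male library 1. The part of the fibroblast and endothelial markers in the *Tgfb3* difference was not tested.

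*Tgfb1*, which encodes the founding isoform of the family, was scarce at 2.62 and 1.82 CPM in castrated males, 2.45 and 2.69 CPM in females, and 1.60 and 1.76 CPM in intact males. Both female libraries lay above both intact male libraries, at 15 to 24 reads in all of these 4. Added per kilobase, the 3 TGF-beta genes reached 8.58 and 9.50 CPM per kb in castrated males, 9.61 and 6.91 CPM per kb in females, and 15.9 and 12.9 CPM per kb in intact males. The intact male sums were the 2 highest. *Tgfb2* made up 51.3% and 60.4% of that sum in castrated males, 31.1% and 29.8% in females, and 32.7% and 57.6% in intact males. *Tgfb3* made up 42.7% and 35.8% in castrated males, 63.9% and 62.5% in females, and 65.3% and 39.7% in intact males. *Tgfb2* was thus the larger share in both castrated male libraries, *Tgfb3* in both female libraries, and the intact male libraries divided.

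**Figure D3:**
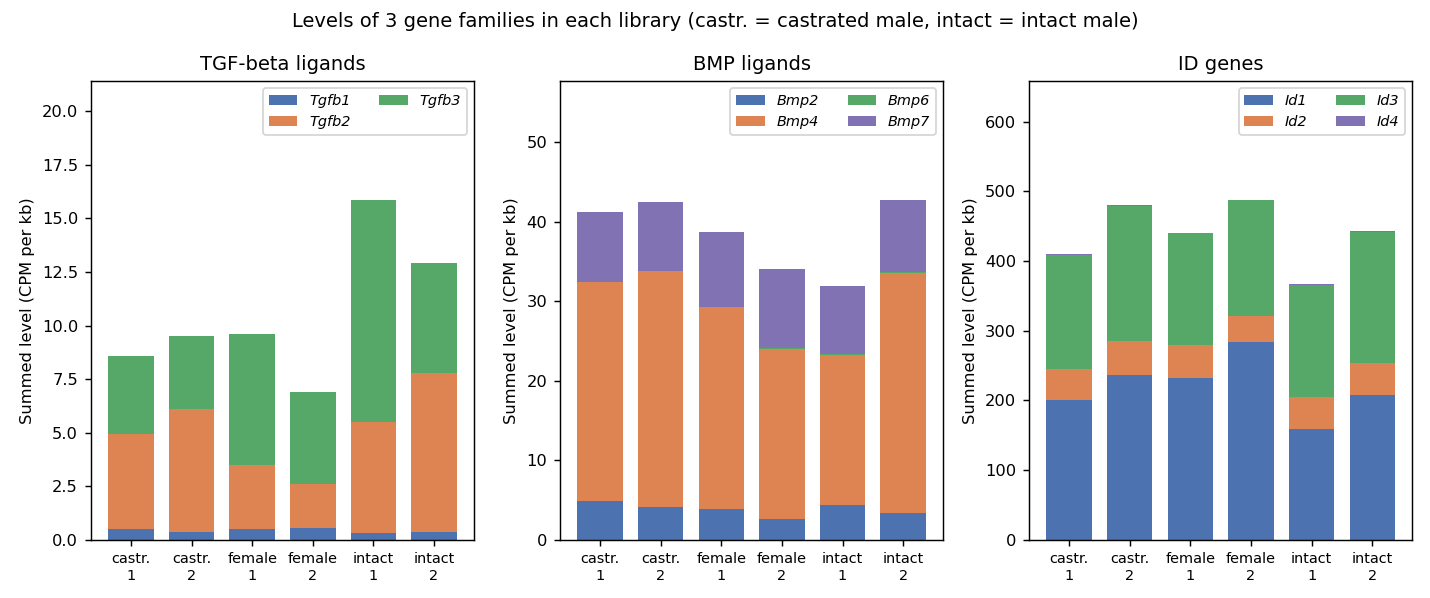
Summed level in CPM per kb of exonic length of the 3 TGF-beta ligand genes, 4 BMP ligand genes and 4 ID genes in each library, with 1 stacked bar per library and 1 colour per gene. The TGF-beta sum is highest in the intact male libraries, at 15.9 and 12.9 CPM per kb, and *Bmp4* and *Id1* or *Id3* fill most of the other bars.

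Of the BMP ligands, *Bmp4* was the most abundant per kilobase, at 61.9 and 66.5 CPM in castrated males, 57.3 and 48.0 CPM in females, and 42.4 and 67.9 CPM in intact males. The groups overlapped except that both castrated male libraries lay above both female ones. *Bmp7* varied least, at 35.5 and 35.0 CPM in castrated males, 38.0 and 39.6 CPM in females, and 34.4 and 36.7 CPM in intact males. *Bmp2* stood at 17.3 and 14.8 CPM in castrated males, 13.6 and 9.49 CPM in females, and 15.6 and 12.0 CPM in intact males. Both castrated male libraries of *Bmp2* lay above both female libraries, and intact males overlapped both groups. *Bmp4* made up between 59.1% and 70.7% of the summed level per kilobase of *Bmp2*, *Bmp4*, *Bmp6* and *Bmp7* in every library. *Bmp6* had 2 and 2 reads in castrated males, 0 and 4 reads in females, and 4 and 1 reads in intact males. The activin subunit genes were as sparse. *Inhba* had 5 and 2 reads in castrated males, 5 and 3 reads in females, and 4 and 6 reads in intact males, and *Inhbb* had 3 and 3 reads in castrated males, 9 and 4 reads in females, and 13 and 1 reads in intact males. These 3 genes had too few reads to be tested.

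The latency and processing genes were 4 LTBP genes, whose products bind latent TGF-beta or the matrix that stores it, and *Bmp1*, which encodes a protease that cleaves procollagens and the BMP antagonist chordin. None of the 5 passed in any comparison. *Ltbp4* was the most abundant of them per kilobase, at 128 and 122 CPM in castrated males, 99.1 and 58.7 CPM in females, and 113 and 135 CPM in intact males. Both female libraries lay below the other 4. Its log2 fold change was -0.69 ± 0.22 (SE, 95% interval -1.19 to -0.19, adjusted p = 0.0984) in females against intact males, and 0.71 ± 0.22 (SE, 95% interval 0.21 to 1.21, adjusted p = 0.124) in castrated males against females. Without female library 1 both differences passed, at log2 fold changes of -1.07 (adjusted p = 0.0112) and 1.08 (adjusted p = 0.0147). Without female library 2 they were -0.32 (adjusted p = 0.456) and 0.33 (adjusted p = 0.581).

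*Bmp1* also had both female libraries lowest, at 37.8 and 34.4 CPM in castrated males, 29.2 and 18.1 CPM in females, and 33.0 and 30.0 CPM in intact males, and here both castrated male libraries were highest. *Ltbp3* stood at 21.2 and 20.9 CPM in castrated males, 23.1 and 16.8 CPM in females, and 26.7 and 25.1 CPM in intact males. Its intact male libraries were the 2 highest, and the log2 fold change in castrated against intact males was -0.29 ± 0.19 (SE, 95% interval -0.73 to 0.14, adjusted p = 0.963). *Ltbp1* and *Ltbp2* were scarce. *Ltbp1* had 2.50 and 2.39 CPM in castrated males, 3.27 and 2.95 CPM in females, and 3.41 and 2.70 CPM in intact males, and both castrated male libraries lay lowest. *Ltbp2* had 3.30 and 0.683 CPM in castrated males, 1.12 and 0.769 CPM in females, and 4.79 and 1.64 CPM in intact males, so that 1 library in each male group was high and the other low. Of the 5 genes, 4 had both female libraries below both intact male libraries, where 27.2% of all tested genes did so in this direction, and the median log2 fold change was -0.44.

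Among the antagonists, *Fstl3* encodes a secreted protein that binds activins. It had 34.0 and 39.3 CPM in castrated males, 33.9 and 28.8 CPM in females, and 46.4 and 42.6 CPM in intact males. Both intact male libraries lay above the other 4. The log2 fold change was -0.50 ± 0.16 (SE, 95% interval -0.86 to -0.14, adjusted p = 0.0937) in females against intact males and -0.28 ± 0.16 (SE, 95% interval -0.64 to 0.08, adjusted p = 0.928) in castrated against intact males, and neither passed. *Fst*, which encodes follistatin, another activin-binding protein, had 3.53 and 3.64 CPM in castrated males, 5.21 and 5.90 CPM in females, and 6.60 and 3.52 CPM in intact males. Both castrated male libraries lay below both female libraries, with a log2 fold change in castrated males against females of -0.57 ± 0.32 (SE, 95% interval -1.29 to 0.16, adjusted p = 0.333), which did not pass. *Bambi*, a decoy receptor that is also a target of the pathway, had 1.93 and 1.25 CPM in castrated males, 1.02 and 1.15 CPM in females, and 1.17 and 2.23 CPM in intact males, with both female libraries lowest. The BMP antagonist genes *Nog* and *Grem1* were near the detection limit. *Nog* had 3 and 4 reads in castrated males, 4 and 2 reads in females, and 0 and 1 reads in intact males, and *Grem1* had 4 and 7 reads in castrated males, 1 and 1 reads in females, and 3 and 5 reads in intact males. Neither was tested.

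None of the 10 receptor genes passed in any comparison. *Tgfbr3*, which encodes betaglycan, a co-receptor that presents TGF-beta to its receptors, had the highest mean level per kilobase of the receptors over all 6 libraries, at 227 and 219.7 CPM in castrated males, 190.0 and 127 CPM in females, and 239 and 250.3 CPM in intact males. The female libraries were lowest, castrated male libraries lay between, and intact male libraries were highest, with no overlap between any of the groups. The log2 fold change was -0.65 ± 0.18 (SE, 95% interval -1.05 to -0.25, adjusted p = 0.0644) in females against intact males. In castrated males against females it was 0.52 ± 0.18 (SE, 95% interval 0.12 to 0.92, adjusted p = 0.144). Without female library 1 both passed, at -0.94 (adjusted p = 0.00798) and 0.81 (adjusted p = 0.0157), whereas without female library 2 they were -0.36 (adjusted p = 0.269) and 0.23 (adjusted p = 0.613).

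The signalling receptor *Tgfbr1* had 53.0 and 45.5 CPM in castrated males, 60.1 and 78.7 CPM in females, and 63.7 and 54.2 CPM in intact males, and its castrated male libraries lay below the other 4. In castrated against intact males its log2 fold change was -0.26 ± 0.17 (SE, 95% interval -0.64 to 0.13, adjusted p = 0.967). *Tgfbr2* had 113 and 116 CPM in castrated males, 122 and 137 CPM in females, and 115 and 102 CPM in intact males, with both female libraries highest. The activin receptor *Acvr1b* was nearly level at 143 and 136 CPM in castrated males, 141 and 126 CPM in females, and 132 and 141 CPM in intact males. Its highest and lowest library differed 1.13-fold, the smallest range of the tested members. *Acvr2a*, another activin receptor gene, ran from 21.3 to 25.2 CPM over the 6 libraries, and the scarce *Acvr2b* ran from 1.37 to 3.30 CPM over the 6 libraries.

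Of the BMP receptors, *Bmpr1a* had 49.2 and 51.0 CPM in castrated males, 47.5 and 43.0 CPM in females, and 52.7 and 53.3 CPM in intact males, and its female libraries were the 2 lowest and its intact male libraries the 2 highest. *Bmpr2* ran from 60.5 to 74.8 CPM over the 6 libraries and *Acvr1* ran from 3.88 to 7.39 CPM over the 6 libraries with overlapping groups. *Bmpr1b* had 3.41 and 4.10 CPM in castrated males, 4.19 and 2.82 CPM in females, and 7.24 and 2.23 CPM in intact males, and here too the first intact male library stood above the other 5. Of the 10 receptors, 4 had non-overlapping female and intact male libraries (1 higher and 3 lower in females), against 53.7% of all tested genes. Castrated and intact male libraries did not overlap for 3, all lower in castrated males, against 35.5% of all tested genes, and castrated male and female libraries did not overlap for 4, against 57.7%. Taken over both directions, none of these shares was above that of all genes. By direction, 30% of the receptors were lower in castrated than in intact males, against 18.2% of all tested genes. Likewise 30% were lower in females than in intact males, against 27.2%, and the other shares by direction were below those of all genes.

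No SMAD gene or regulator passed. *Smad3*, a transducer of TGF-beta and activin signals, had 17.9 and 17.6 CPM in castrated males, 13.2 and 11.4 CPM in females, and 18.1 and 17.6 CPM in intact males. The female libraries lay below the other 4, while the castrated and intact male values all lay between 17.6 and 18.1 CPM. The log2 fold change was -0.52 ± 0.18 (SE, 95% interval -0.93 to -0.11, adjusted p = 0.118) in females against intact males and 0.52 ± 0.18 (SE, 95% interval 0.11 to 0.93, adjusted p = 0.154) in castrated males against females. *Smad2*, its partner in the same branch, had 35.1 and 38.8 CPM in castrated males, 39.3 and 41.3 CPM in females, and 45.4 and 37.7 CPM in intact males. Per kilobase, *Smad3* made up 44.6% and 41.9% of the sum of both in castrated males, 34.7% and 30.5% in females, and 38.7% and 42.5% in intact males, so its share was lowest in both female libraries.

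In the BMP branch, *Smad1*, which carries BMP signals, had 25.9 and 26.5 CPM in castrated males, 33.6 and 34.6 CPM in females, and 27.8 and 24.0 CPM in intact males, with both female libraries above the other 4. *Smad5*, which acts beside it, had 125 and 114 CPM in castrated males, 118 and 114 CPM in females, and 143 and 119 CPM in intact males. Per kilobase, *Smad1* made up 19.7% and 21.6% of the *Smad1* and *Smad5* sum in castrated males, 25.3% and 26.4% in females, and 18.7% and 19.3% in intact males, so its share was highest in both female libraries. *Smad4*, shared by both branches, ran from 25.3 to 30.7 CPM over the 6 libraries. The inhibitory SMAD genes, which the pathway itself induces, were scarce. *Smad7* had 4.78 and 4.21 CPM in castrated males, 4.50 and 2.69 CPM in females, and 5.96 and 3.88 CPM in intact males, and *Smad6* had 7 and 6 reads in castrated males, 4 and 8 reads in females, and 7 and 10 reads in intact males.

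Among the regulators, *Skil*, a co-repressor of SMADs and itself a TGF-beta target, had 32.3 and 29.4 CPM in castrated males, 34.5 and 38.3 CPM in females, and 42.9 and 35.0 CPM in intact males, with the castrated male libraries lowest. Its log2 fold change in castrated against intact males was -0.33 ± 0.16 (SE, 95% interval -0.69 to 0.04, adjusted p = 0.884). The related co-repressor gene *Ski* ran from 50.0 to 60.7 CPM over the 6 libraries, and the repressor gene *Tgif1* ran from 74.9 to 88.9 CPM over the 6 libraries. Of the ubiquitin ligase genes, *Smurf2* had 23.5 and 23.8 CPM in castrated males, 22.0 and 18.5 CPM in females, and 24.2 and 26.8 CPM in intact males, with the intact male libraries highest. *Smurf1* had 16.9 and 15.03 CPM in castrated males, 19.9 and 14.0 CPM in females, and 25.1 and 14.3 CPM in intact males, and the first intact male library again stood alone.

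The 4 ID genes encode inhibitors of basic helix-loop-helix transcription factors. *Id1* had 232 and 275 CPM in castrated males, 269 and 329 CPM in females, and 185 and 240.4 CPM in intact males. Both female libraries lay above both intact male libraries, and castrated males overlapped both groups. The log2 fold change was 0.49 ± 0.17 (SE, 95% interval 0.12 to 0.87, adjusted p = 0.113) in females against intact males and 0.26 ± 0.17 (SE, 95% interval -0.12 to 0.64, adjusted p = 0.963) in castrated against intact males, and neither passed. With a library left out they ran from 0.31 to 0.68 and from 0.07 to 0.45. *Id3* had 293 and 348 CPM in castrated males, 287 and 298 CPM in females, and 288 and 336 CPM in intact males, and *Id2* had 111 and 119 CPM in castrated males, 118 and 92.1 CPM in females, and 109 and 115 CPM in intact males. For both of these the groups overlapped in every comparison.

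*Id4* was by far the scarcest of the family, at means of 1.43 CPM per kb in castrated males, 0.612 CPM per kb in females, and 1.19 CPM per kb in intact males. It had 54 and 43 reads in castrated males, 31 and 12 reads in females, and 41 and 41 reads in intact males, or 6.14 and 4.90 CPM in castrated males, 3.17 and 1.54 CPM in females, and 4.37 and 4.82 CPM in intact males. Both female libraries lay below the other 4, and both castrated male libraries lay above both intact male libraries. In castrated males against females the log2 fold change was 1.13 ± 0.34 (SE, 95% interval 0.37 to 1.90, adjusted p = 0.114), which did not pass. Without female library 1 it passed (1.55, adjusted p = 0.0406), and without female library 2 it was 0.71 (adjusted p = 0.595). The ID genes summed to 411 and 481 CPM per kb in castrated males, 441 and 488 CPM per kb in females, and 366 and 443 CPM per kb in intact males. *Id1* made up 48.8% and 49.2% of this sum in castrated males, 52.6% and 58.1% in females, and 43.5% and 46.8% in intact males, so its share was highest in both female libraries.

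**Figure D4:**
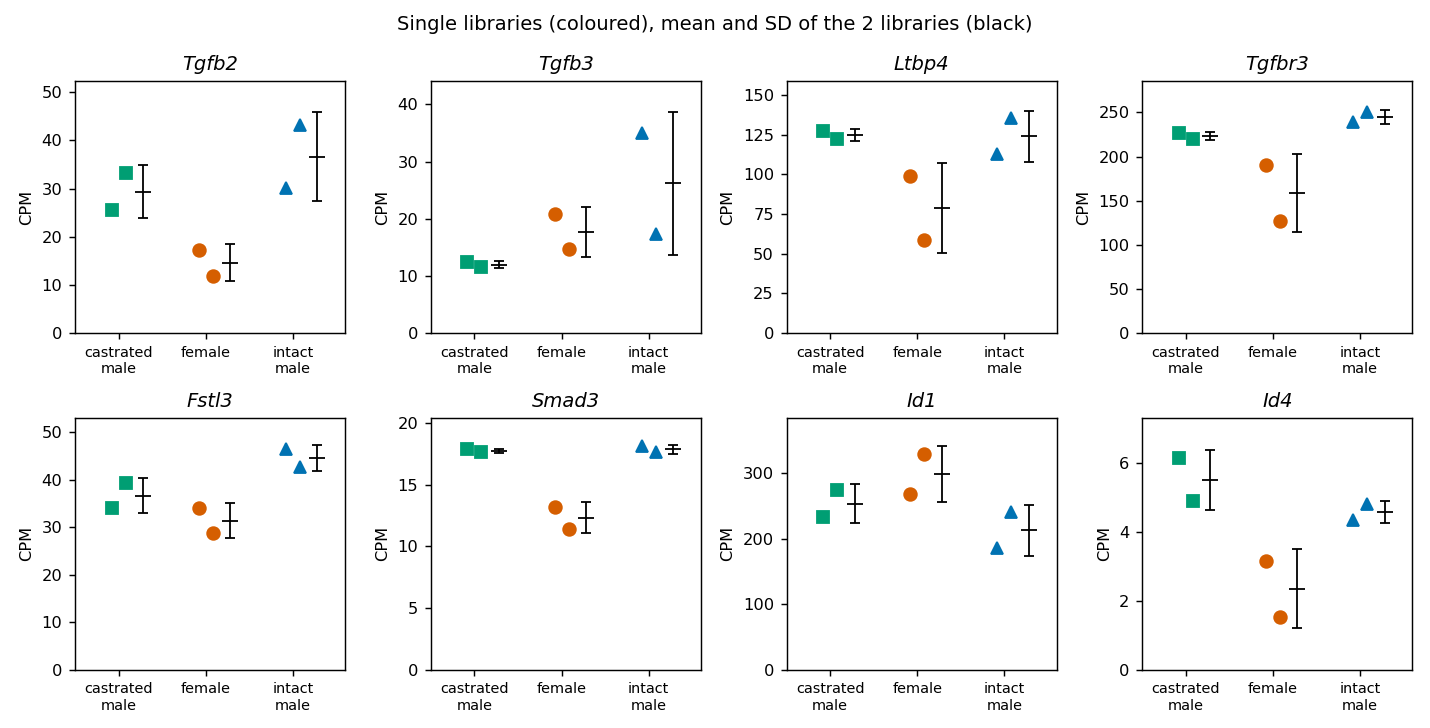
CPM of 8 members in each library (coloured symbols) with the mean and SD of the 2 libraries of a group (black), for castrated males, females and intact males, each axis starting at 0. Both female libraries lie below the other 4 for *Tgfb2*, *Ltbp4*, *Tgfbr3*, *Smad3* and *Id4*, and *Tgfb3* shows the single high intact male library at 35.0 CPM.

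A further list of 81 pathway genes outside the 45 held 55 tested genes. It was chosen with earlier results of these data known, so its shares against all genes are no independent test. In females against intact males 3 of them rose and 2 fell, 9.09% of those tested, against 6.1% of all tested genes. In castrated males against females 2 fell, 3.64% against 1.73% of all tested genes, and in castrated against intact males none passed in limma, against 0.0389% of all tested genes. In that comparison 7 of the 55 had an unadjusted p below 0.05 (1 higher and 6 lower), 12.7% against 5.93% of all tested genes (3.1% higher and 2.83% lower). The share at that level was 30.9% against 24.9% of all tested genes in females against intact males. It was 23.6% against 21.6% in castrated males against females. *Sostdc1*, an antagonist of BMP and Wnt ligands, had 146 and 205 CPM in castrated males, 305 and 361 CPM in females, and 127 and 146 CPM in intact males. Both female libraries lay above the other 4, with log2 fold changes of 1.29 ± 0.18 (SE, 95% interval 0.89 to 1.69, adjusted p = 0.00884) in females against intact males and -0.94 ± 0.18 (SE, 95% interval -1.34 to -0.54, adjusted p = 0.0415) in castrated males against females. *Lrrc32*, which encodes a surface anchor of latent TGF-beta, had 1 and 3 reads in castrated males, 32 and 41 reads in females, and 10 and 6 reads in intact males. It rose in females against intact males, at a log2 fold change of 1.76 ± 0.39 (SE, 95% interval 0.88 to 2.64, adjusted p = 0.0360). It fell in castrated males against females, at -2.70 ± 0.39 (SE, 95% interval -3.58 to -1.82, adjusted p = 0.0179), a value that ran from -3.79 with a pseudocount of 0.1 to -1.48 with a pseudocount of 2.

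*Tgfbi*, a matrix protein induced by TGF-beta, had 1184 and 1175 CPM in castrated males, 945 and 803 CPM in females, and 1509 and 1402 CPM in intact males. It fell in females against intact males, at a log2 fold change of -0.74 ± 0.14 (SE, 95% interval -1.05 to -0.43, adjusted p = 0.0225). *Msx1*, a homeobox gene induced by BMP, had 5.91 and 8.08 CPM in castrated males, 8.38 and 7.44 CPM in females, and 0.639 and 2.47 CPM in intact males, with both intact male libraries lowest. It rose in females against intact males, at 2.19 ± 0.43 (SE, 95% interval 1.22 to 3.16, adjusted p = 0.0256). Of the 4 tested genes listed as BMP targets, *Msx1* was the 1 with a positive log2 fold change in this comparison. The other 3 were negative, with both female libraries below both intact male libraries, as for 27.2% of all tested genes. The median of the 4 was -0.33. In castrated against intact males 3 of the 4 were positive (median 0.15), and in castrated males against females 3 were (median 0.38). Without female library 2 the calls of *Sostdc1*, *Lrrc32*, *Tgfbi* and *Msx1* between females and intact males were lost (adjusted p between 0.103 and 0.264), and without either castrated male library all of these but that of *Sostdc1* (0.0570 to 0.0690), as were those of *Lrrc32* and *Tgfbi* without intact male library 1 (0.0536 and 0.0776), *Lrrc32* and *Tgfbi* without intact male library 2 (0.105 and 0.0569) and *Msx1* without female library 1 (0.0620). The calls of *Lrrc32* and *Sostdc1* between castrated males and females were lost without female library 2 (0.182 and 0.330) and without either castrated male library (0.0951 to 0.333). Without the filter on low values all 6 of these calls were lost (adjusted p between 0.0537 and 0.146). In a fit of only the 2 groups compared, those of *Lrrc32* (0.0616), *Tgfbi* (0.0675) and *Msx1* (0.0580) between females and intact males were lost. *Lrrc32* also lost that call with a pseudocount of 0.1 (0.0666), and its log2 fold change was 1.103 with a pseudocount of 2. In all, 9 of 14 alternatives lost the call of *Lrrc32* between females and intact males. Of the 10 tested genes listed as TGF-beta targets, none passed in castrated against intact males, where all 10 had a negative log2 fold change, with a median of -0.30. Of all 15413 tested genes 7679 were negative in that comparison, with a median of 0.00, and 0.0389% were called. In females against intact males 7 of the 10 targets were negative (median -0.33, against -0.01 over all genes), and in castrated males against females 6 were (median -0.18, against 0.01). These targets belong to the further list, chosen with earlier results of these data known.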

How the data were processed

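RNA was measured by sequencing in 6 libraries, and groups were taken from the sample titles. The library titled as the second intact male carries the number 3 in its library name. Per the submitters' processing notes, FastQC, STAR 2.7.5a, Picard and HTSeq 0.11.1 were used with the builds GRCm38 and mm10. No source used here gives the annotation, the scaling or whether counting used strand, so reads of overlapping or antisense genes cannot be told apart. The deposited values are a score per gene: each column totals close to the same value, and 100% of the values lie within 0.5 of a multiple of 1 step per library, 2.07 to 2.38, as do 42.3% to 49.0% of arbitrary whole numbers. Values divided by the step were taken as reads, an inference from the scaled table. The authors' own counts are not analysed here. All 6 columns were used.

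From the reads, CPM was computed with TMM factors (0.927 to 1.03). Genes with 1.16 CPM, worth 10 reads at the median depth, in 2 or more libraries, and 15 or more reads over all libraries, entered the test. limma 3.58.1 (R 4.3.3) was run with a trend on log2(CPM + 0.5), 1 mean per group, all 6 libraries and 3 residual degrees of freedom (prior 5.81), which understates fold changes of scarce genes. P-values are two-sided, adjusted by Benjamini-Hochberg within a comparison, and called below 0.05. The procedure was tested on simulated data, with noise drawn separately for each gene and library. No simulated library stood apart from the others, so that run cannot show how the test handles one that does. The counting test planned as an alternative was not run, since the table holds scaled values. The 2 libraries of a group differed beyond sampling noise (chi-square over degrees of freedom: 4.41 in castrated males, 12.3 in females and 11.7 in intact males). Exonic lengths and gene coordinates came from GENCODE M21 (GRCm38).

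The members, the further list of 81 genes and the markers were chosen with earlier results of these data known, among them the lower *Tgfb2* in females. A fold change is printed for each called member, for the member of each role with the smallest p in a comparison, and for at most the 4 called genes of the further list with the smallest p, and 1 further called gene is not reported here. The alternatives were other scalings, pseudocounts and filters, fits of 2 groups, a replicate block, omission of each library and removal of a trend on exonic length.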

Additional observations from a re-analysis of the deposited data

How the results depend on the processing

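The count of members called in females against intact males (1) was 0 without the filter on low values, 0 in a fit of only the 2 groups compared, and 0 to 4 when a library was left out. In castrated against intact males (0) it was 0 to 1 when a library was left out, *Tgfb3* being called without intact male library 2. In castrated males against females (0) it was 1 in a fit of only the 2 groups compared and 0 to 5 when a library was left out. The other scalings, pseudocounts, the filter at a mean of 5 CPM and the removal of a trend on exonic length, which was chosen after seeing the data, left the 3 counts as they were. Over all genes, 940 were called in females against intact males, against 103 without the filter, 279 in a fit of the 2 groups and 55 to 1759 with a library left out. For castrated against intact males there were 6, against 2 without the filter, 9 in a fit of the 2 groups, 11 with a pseudocount of 2, 10 with the length trend removed and 1 to 83 with a library left out. For castrated males against females there were 266, against 33 without the filter, 612 in a fit of the 2 groups, 173 with the filter at a mean of 5 CPM, 162 with the replicate block and 31 to 1332 with a library left out. Beyond fewer libraries or more genes in these fits, the cause was not tested. Whether the replicate numbers pair the libraries by origin is not known. Deviations from the group means correlated at 0.194 between castrated males and females, -0.0103 between castrated and intact males and -0.153 between females and intact males. With 1 difference between libraries in each group, these values cannot settle it. With the replicate number as a block, 2 members (*Tgfb2* and *Id1*) were called in females against intact males and 0 in each of the other comparisons. Over 356 repeats of the 24 named fold changes none reversed, 307 kept their side of the threshold, 38 lost the call and 11 gained it. The edgeR and DESeq2 fits planned on recovered reads were not run, because the deposited columns are not counts. Genes with a few reads, such as *Nog* and *Bmp6*, are limited by depth.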
